A study of Homo sapiens with 2 samples.

Results

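The caveolin and cavin genes of SUM159 cells resistant to doxorubicin were examined as 8 genes, chosen by name: the caveolins CAV1, CAV2 and CAV3, the cavins PTRF, SDPR and PRKCDBP, which are listed under these older symbols of CAVIN1, CAVIN2 and CAVIN3, and the accessory genes EHD2 and PACSIN2. All 8 were found among the 23368 gene symbols of both count files. SUM159 is a triple-negative breast cancer line, and the labels give its genotype as Wt and its treatment as doxorubicin, a topoisomerase II poison to which attached cells were adapted over a long time with rising doses, with drug-free recovery according to the methods of the study. The 2 libraries are replicates of this 1 condition, from cells kept in Ham's medium with 5% serum, insulin at 5 μg/mL, and hydrocortisone at 1 μg/mL. Libraries of cells before resistance were not analysed here, so levels in the resistant cells are described and no change upon resistance was tested. Whether the replicates were grown separately and whether the resistant cells are 1 clone is not stated, so SDs measure only the spread between these samples, which could be technical.

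Caveolae are small flask-shaped pits of the plasma membrane that are rich in cholesterol, buffer membrane tension and gather signaling proteins. Caveolins are inserted into the inner leaflet of the membrane and assemble into oligomers, and cavins bind them from the cytoplasm as a coat. CAV1 and PTRF are the caveolin and the cavin without which caveolae are not formed in most cell types, whereas CAV3 takes the place of CAV1 in striated muscle. EHD2, an ATPase, sits at the neck of the pit and holds it at the surface, and PACSIN2 has an F-BAR domain that bends membranes.

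CAV1 and CAV2 lie side by side on the plus strand of chromosome 7, whereas CAV3 is on chromosome 3. The canonical transcript of CAV1 runs from 116165090 to 116201233 of GRCh37 and that of CAV2 from 116139792 to 116148595, in 3 exons each. The canonical transcript of CAV3 runs from 8775488 to 8788444 in 2 exons. The sequences before the starts of these caveolin genes are shown because CAV1 and CAV2 were expressed and CAV3 was not detected. They are RefSeq promoter sequences of GRCh38.p14, placed on GRCh37 by exact match, read 5′ to 3′ and ending before the annotated exons of the gene. They stand at chr7:116164840-116165047 for CAV1, chr7:116139542-116139791 for CAV2 and chr3:8775238-8775487 for CAV3, all on the plus strand. Capitals mark 4 motifs searched on both strands, none of which overlap in these windows. The GC box is a site of SP1-like factors and was searched as GGGCGG. The TATA box, where the basal transcription machinery binds, was searched as TATAAA. The CCAAT box was searched by the letters of its name, and an E-box, a site of muscle and other basic helix-loop-helix factors, as CAGCTG.
CAV1 promoter: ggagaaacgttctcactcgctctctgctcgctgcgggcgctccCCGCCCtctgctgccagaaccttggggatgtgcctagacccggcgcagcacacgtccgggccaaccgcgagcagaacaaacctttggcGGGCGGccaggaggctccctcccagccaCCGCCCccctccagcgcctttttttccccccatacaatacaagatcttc
CAV2 promoter: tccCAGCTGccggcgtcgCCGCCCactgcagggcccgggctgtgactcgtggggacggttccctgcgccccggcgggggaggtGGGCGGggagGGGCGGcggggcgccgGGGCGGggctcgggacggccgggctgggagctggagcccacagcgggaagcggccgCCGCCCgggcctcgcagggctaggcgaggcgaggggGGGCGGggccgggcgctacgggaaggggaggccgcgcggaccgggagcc
CAV3 promoter: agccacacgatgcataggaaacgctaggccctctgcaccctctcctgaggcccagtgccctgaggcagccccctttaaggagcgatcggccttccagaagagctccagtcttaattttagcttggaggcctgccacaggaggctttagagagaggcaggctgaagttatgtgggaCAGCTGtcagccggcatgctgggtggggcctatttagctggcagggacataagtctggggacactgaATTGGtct
Motifs and GC content were taken over the whole 250 bases before each canonical start, of which the first 208 are shown for CAV1, the rest lying in exons of other CAV1 transcripts. The GC box was found at 3 places in CAV1 and 6 in CAV2 and at no place in CAV3. Of 35116 promoter windows of this length, 42.6% hold it. None of the 3 windows holds the TATA box, which 10.7% of windows have. The CAV3 window holds 1 CCAAT box and 1 E-box, which 32.0% and 13.99% of windows have, and the CAV2 window also holds 1 E-box. GC content was 63.2% in CAV1, 83.2% in CAV2 and 57.2% in CAV3, against a median of 58% over all windows. SDPR, EHD2 and PACSIN2 had RefSeq entries too, with GC contents of 48.0%, 69.6% and 68.0%, and PTRF and PRKCDBP had none. The window of SDPR, which was also expressed, held no GC box and 1 E-box. That of EHD2 held 1 GC box, and that of PACSIN2 held 2 GC boxes and 3 CCAAT boxes. The GC box was thus absent from an expressed gene as well as from CAV3. These are descriptions of letters and not of binding sites.

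Of the caveolins, CAV1 was far above CAV2 per length of transcript, and CAV3 was not detected. CAV1, which builds the caveolar scaffold, had 17452 counts in replicate 1 and 12867 in replicate 2, or 757 and 715 counts per 1000000 counts of the library (CPM). Its mean level was 736 ± 29.6 CPM (SD, n = 2). CAV2, which forms mixed oligomers with CAV1 and depends on it to reach the surface, had 2488 and 1854 counts, or 108 and 103 CPM. Both libraries thus gave nearly the same level, with a mean of 106 ± 3.45 CPM (SD, n = 2). CAV3, the muscle caveolin, had 0 counts in both libraries, which leaves room for at most 0.130 CPM in replicate 1 or 0.167 CPM in replicate 2. These limits stand for 3 counts and cover counting error only.

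Levels of different genes were compared per kilobase (kb) of exonic length, here the union of all annotated exons. On this scale of CPM per kb, CAV1 was 11.9 times as high as CAV2 in replicate 1 and 11.8 times in replicate 2. The ratio depends on the length assigned to the genes: it was 8.39 ± 0.0632 (SD, n = 2) with the canonical transcripts and 6.35 ± 0.0478 (SD, n = 2) with coding lengths. CAV1 made up 92.2% ± 0.0540 (SD, n = 2) of the summed caveolin level per kb. Against the limit of 3 counts for CAV3, CAV1 was at least 2928-fold higher per kb in replicate 1 and at least 2159-fold higher in replicate 2. The same bound for CAV2 was 245-fold and 183-fold higher than CAV3. In bulk RNA, fewer cells that express a gene and less of its RNA in each cell cannot be told apart.

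**Figure D1:**
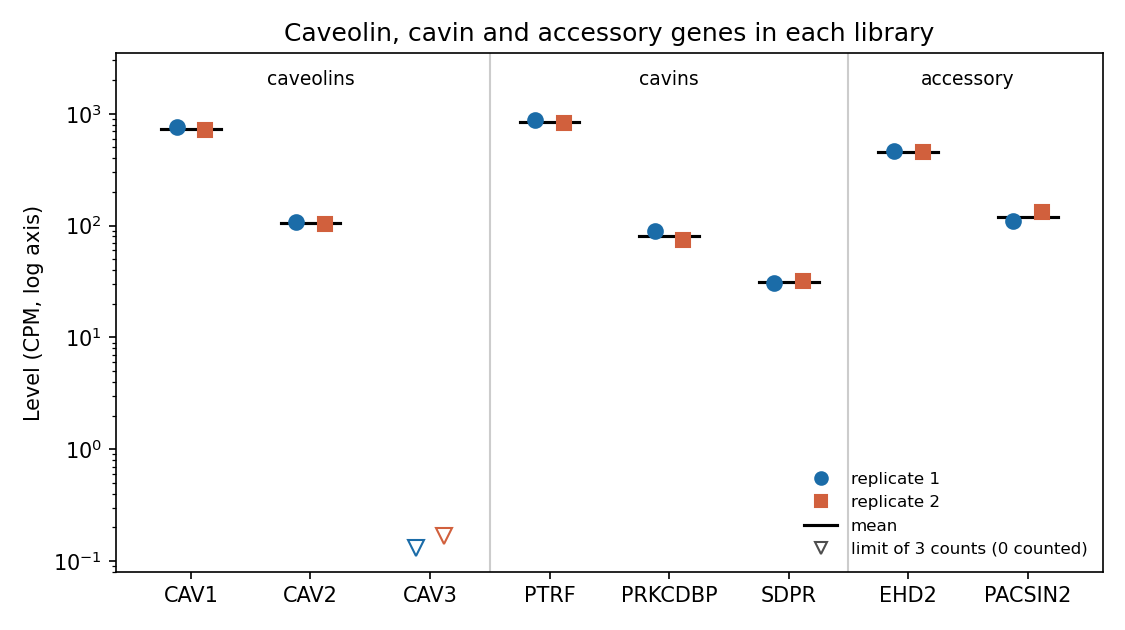
CPM on a log axis of the 8 caveolae genes in replicate 1 (circles) and replicate 2 (squares), with horizontal lines at the mean and open triangles at the limit of 3 counts where none were counted. PTRF and CAV1 have means of 852 and 736 CPM, SDPR has 31.5 CPM and CAV3 has only its limits of 0.130 and 0.167 CPM.

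Among the cavins, PTRF had the highest level per kb in both libraries and SDPR the lowest. PTRF, the cavin that trimerizes into the caveolar coat, lies on the minus strand of chromosome 17 from 40554467 to 40575274 of GRCh37. It had 20217 counts in replicate 1 and 14884 in replicate 2, or 877 and 828 CPM, with a mean of 852 ± 35.2 CPM (SD, n = 2). PRKCDBP, which encodes a cavin that binds protein kinase C delta, lies on chromosome 11 from 6340176 to 6341731 on the minus strand. It had 2047 and 1333 counts, or 88.8 and 74.1 CPM, the lower value being that of replicate 2. SDPR, whose product helps curve the membrane and binds protein kinase C, lies on chromosome 2 from 192699036 to 192711814 on the minus strand. Its 713 and 575 counts correspond to 30.9 and 32.0 CPM, the smallest difference between the libraries among the cavins.

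Per kb of exons, PTRF had 246 and 232 CPM per kb in replicates 1 and 2, PRKCDBP had 57.1 and 47.6, and SDPR had 10.1 and 10.5. PTRF therefore made up 79.2% ± 1.02 (SD, n = 2) of the summed level of these cavins per kb, PRKCDBP 17.3% ± 1.28 and SDPR 3.42% ± 0.264 (SD, n = 2 each). In both libraries the cavins kept this order without overlap. The shares rest on the length used, and their SDs do not cover that choice. PTRF exceeded PRKCDBP 4.59 ± 0.398 times per kb of exons. With canonical transcripts it did so 3.03 ± 0.263 times and with coding lengths 7.90 ± 0.685 times (SD, n = 2 each). SDPR shares 238 exonic bases with its antisense long noncoding RNA CAVIN2-AS1, and PRKCDBP shares 571 with an antisense long noncoding RNA that has no name in the annotation. The libraries were made with a directional kit, which keeps the strand of the RNA, but the sources used here do not state whether the counting used it. Whether reads of the antisense RNAs entered these counts was not tested.

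EHD2 was well above PACSIN2 per kb of exons, 5.02 times in replicate 1 and 4.09 times in replicate 2. The size of this ratio rests on the length used. With canonical transcripts EHD2 had 130 ± 2.04 and PACSIN2 36.9 ± 4.78 CPM per kb (SD, n = 2 each). With coding lengths they had 281 ± 4.39 and 82.4 ± 10.7 CPM per kb (SD, n = 2 each). EHD2, on the plus strand of chromosome 19 from 48216679 to 48246391 of GRCh37, had 10655 and 8134 counts, or 462 and 452 CPM. Its mean of 457 ± 7.16 CPM (SD, n = 2) had the smallest coefficient of variation of the 7 detected genes, 1.57%. PACSIN2, on the minus strand of chromosome 22 from 43265779 to 43411155, had 2515 and 2358 counts, or 109 and 131 CPM. It was thus higher in replicate 2, with a coefficient of variation of 12.9%, close to that of PRKCDBP with 12.8%. PACSIN2 shares 155 exonic bases with ARFGAP3, a gene of vesicle traffic on the same strand with 1581 and 1371 counts.

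In all, 7 of the 8 genes reached a mean count of 20 over both libraries, as did 52.8% of all gene symbols, and 6 of the 8 reached 1000, as did 20.6%. Ordered per kb of exons, the mean levels were 239 ± 9.86 for PTRF, 190 ± 7.66 for CAV1, 119 ± 1.86 for EHD2, 52.3 ± 6.68 for PRKCDBP, 26.4 ± 3.41 for PACSIN2, 16.0 ± 0.525 for CAV2 and 10.3 ± 0.238 for SDPR (CPM per kb, SD, n = 2 each), with CAV3 at 0. Each gene lay above the next in both libraries, without overlap of their values. With 2 values against 2 an exact permutation test cannot fall below the threshold, so no test was made of this order. PTRF, CAV1 and EHD2 were above 99.1%, 98.8% and 97.8% of the 11834 genes that reached a mean count of 20 and had a known length, at ranks 103, 140 and 266, and SDPR was above 64.0% of them. The median of these genes was 6.39 CPM per kb.

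The top of this order rests on the gene lengths. PTRF exceeded CAV1 per kb of exons, with a ratio of 1.26 in replicate 1 and 1.25 in replicate 2. With the canonical transcripts, of 3570 bases for PTRF and 2456 for CAV1, the ratio turned to 0.797 and 0.796, so that CAV1 was the higher of them. CAV2 and PACSIN2 overlapped on that scale, with 36.6 and 34.9 CPM per kb for CAV2 and 33.6 and 40.3 for PACSIN2. With coding lengths CAV2 moved above PRKCDBP and PACSIN2, and these 2 overlapped. EHD2 stayed in place 3 and SDPR stayed the lowest detected gene in both of these alternatives.

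**Figure D2:**
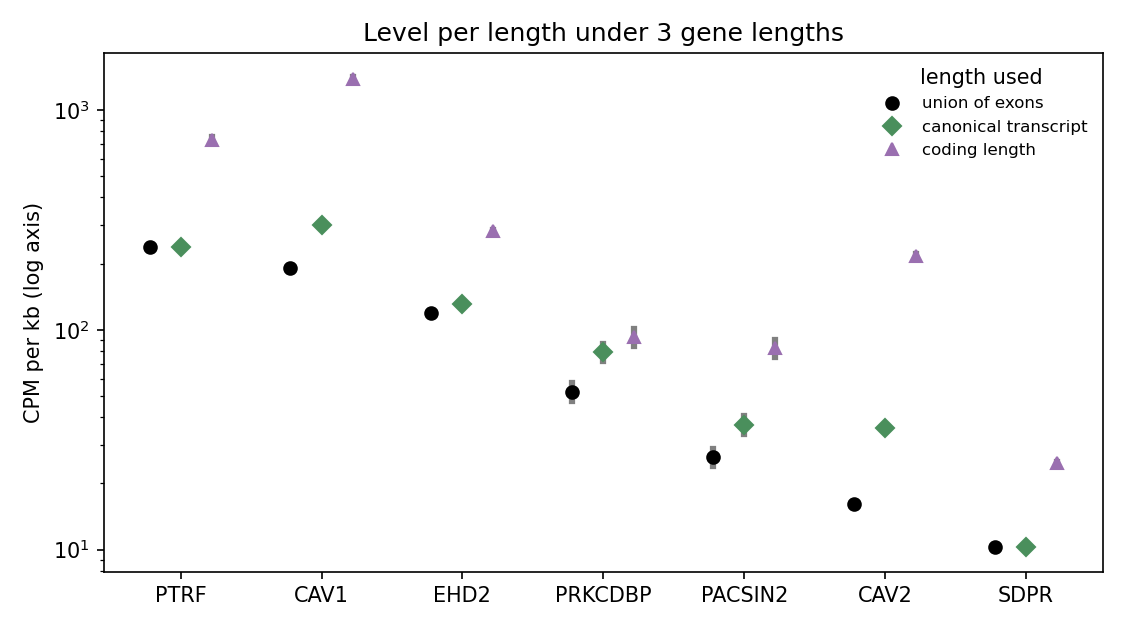
Mean CPM per kb on a log axis of the 7 detected genes, with the length of the union of exons (circles), of the canonical transcript (diamonds) and of the coding sequence (triangles); gray bars join the 2 libraries. PTRF leads with 239 CPM per kb of exons against 190 for CAV1, whereas CAV1 leads with 300 against 239 with canonical transcripts.

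The libraries differed by little at CAV1, CAV2, PTRF, SDPR and EHD2 and by more at PRKCDBP and PACSIN2. The log2 ratio of replicate 2 to replicate 1 was −0.082 for CAV1, −0.067 for CAV2, −0.084 for PTRF, 0.047 for SDPR, −0.032 for EHD2, −0.26 for PRKCDBP and 0.26 for PACSIN2. All 7 were smaller in size than 0.30, the median size over the 12340 genes that reached a mean count of 20. In the exact binomial test of edgeR, which compares these libraries and not conditions, 4 of the 7 genes differed at an adjusted p below 0.05, against 57.7% of the 13744 genes tested, so the share was near that of all genes. These p-values take reads as independent and cover counting error only, so a gene can pass with a difference smaller than the spread usual between these libraries. CAV1 (adjusted p = 3.14e-06 in edgeR), PTRF (adjusted p = 2.33e-07 in edgeR) and PRKCDBP (adjusted p = 8.09e-07 in edgeR) were higher in replicate 1, as were 27.6% of all genes tested. PACSIN2 was higher in replicate 2 (adjusted p = 7.52e-10 in edgeR), as were 30.1%. CAV2, EHD2 and SDPR did not pass, with adjusted p of 0.197, 0.198 and 0.664 in edgeR. The dispersion of edgeR, which estimates that spread, gave these genes coefficients of variation of 19.7% to 20.2%, beside a common value of 22.2%. With 2 libraries these estimates are drawn largely from all genes, so their closeness to the common value says little about these genes. Their own coefficients of variation between the libraries ran from 1.57% for EHD2 to 12.9% for PACSIN2.

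The log2 ratio between the libraries moved with exonic length over all genes. With genes split into 10 classes of equal size by length, its median was −0.39 in the shortest class and 0.45 in the longest, so the caveolae genes were also set against genes of their own length class. PRKCDBP, with 1557 exonic bases in the shortest class, was 0.13 above the median of −0.39 of that class. CAV1 lay at the median of its class, −0.083. PACSIN2, in a class whose median was close to 0, was 0.27 above it, and CAV2, with 6578 exonic bases, was 0.19 below its own. When the share expected of replicate 1 was taken from the summed counts of the class, 6 of the 7 genes differed, against 53.4% of 12996 genes. SDPR, PTRF, PRKCDBP, EHD2 and PACSIN2 were then higher in replicate 2, as were 30.6% of all genes, and CAV2 was higher in replicate 1, as were 22.7%. CAV1, with more than 10000 counts in sum, was taken through the exact binomial test of R and no longer differed (adjusted p = 0.0859 in that test).

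**Figure D3:**
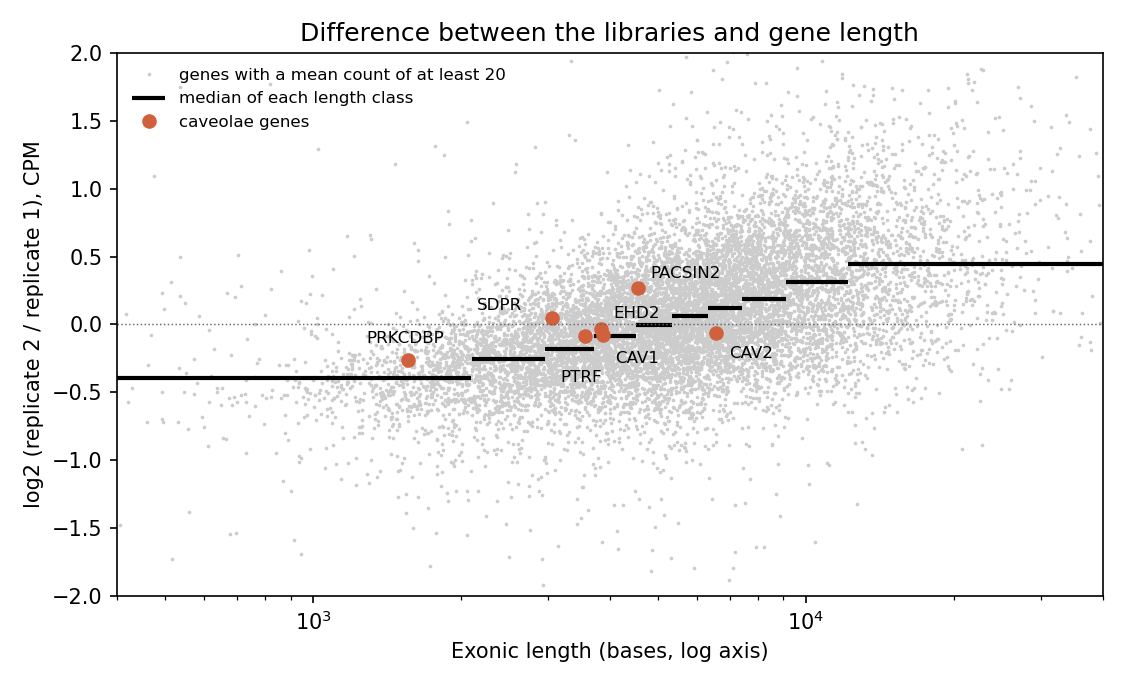
log2 ratio of replicate 2 to replicate 1 in CPM against exonic length in bases on a log axis, for genes that reached a mean count of 20 (gray; a few beyond the axes are not shown), the medians of 10 length classes of tested genes (black steps over each class) and the 7 detected caveolae genes (orange). The caveolae genes lie between −0.26 for PRKCDBP and 0.26 for PACSIN2, inside the cloud of all genes.

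The paralogues of the cavin, EHD and PACSIN genes were each lower per kb than PTRF, EHD2 or PACSIN2, the gene of their family described above. MURC, the muscle cavin listed under this older symbol of CAVIN4, had 30 and 29 counts, and PTRF was 585 and 445 times as high per kb in replicates 1 and 2. The endocytic ATPase genes EHD4, EHD1 and EHD3 had 15.6 ± 2.11, 12.1 ± 0.537 and 1.92 ± 0.149 CPM per kb (SD, n = 2 each). Per kb of exons EHD2 exceeded EHD4, the next of this family, 8.54 times in replicate 1 and 6.89 times in replicate 2. The canonical transcripts of EHD4 and EHD1 have 6401 and 4453 bases, so the order of EHD4 and EHD1 rests on the length used. PACSIN2 was 1.58 and 2.39 times as high as PACSIN3, a paralogue known mainly from muscle. PACSIN1, the neuronal paralogue, had no counts. Of these 6 paralogues, 5 reached a mean count of 20, beside 52.8% of all gene symbols.

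Of the genes that act on caveolae from other pathways, the actin crosslinker FLNA, which binds CAV1, had the highest level per kb, at 190.3 and 323 CPM per kb in replicates 1 and 2. Among the dynamins, which cut membrane necks, DNM2 had 9.88 ± 0.125 CPM per kb (SD, n = 2) and its paralogues DNM1 and DNM3, known from neurons, had 0.516 ± 0.0451 and 0.262 ± 0.00785 CPM per kb (SD, n = 2 each). All 5 genes of scission and actin linkage passed the mean count of 20, WASL, an activator of actin branching, included. Of 8 kinases and signaling partners, 7 passed. Over all gene symbols, 52.8% did. Among the kinases that phosphorylate CAV1, ABL1 had 209 and 286 CPM in replicates 1 and 2, SRC had 69.7 ± 14.2 CPM and FYN 71.8 ± 1.69 CPM (SD, n = 2 each). PRKCA and PRKCD, kinases bound by cavins, had 125 and 223 CPM and 39.3 and 44.1 CPM in replicates 1 and 2. These values were higher in replicate 2 for all but FYN. INSR, the insulin receptor, had 22.5 and 34.5 CPM. ROR1, a receptor reported to bind CAV1 and PTRF, had 65 and 113 counts. NOS3, the endothelial nitric oxide synthase that CAV1 inhibits, had 0 and 1 counts. In the exact binomial test of edgeR, 6 of the 7 tested genes of this group were higher in replicate 2, as were 30.1% of all genes tested, and none in replicate 1, as were 27.6%. FYN was the exception (adjusted p = 0.468 in edgeR). These 7 genes have 4909 to 11175 exonic bases, and the median log2 ratios of their length classes ran from −0.0049 to 0.31. The part of length in this count was not tested. Of the flotillins, scaffold proteins of other membrane domains, FLOT2 had 181 ± 30.0 CPM (SD, n = 2) and FLOT1 had 3 counts in each library. FLOT1 sits inside the MHC region, in which only 23 of 169 protein-coding genes reached that minimum, whereas 500 of 810 did elsewhere on chromosome 6. Its part in the FLOT1 value was not tested.

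Genes of clathrin-mediated endocytosis, the other main coated route into the cell, were all expressed, and 9 of 9 reached a mean count of 1000, against 20.6% of all gene symbols. Their median was 50.4 CPM per kb, against 39.3 over the 8 caveolae genes with CAV3 at 0 and 0.880 over all gene symbols with a length. CLTC, the clathrin heavy chain, had 358 and 532 CPM in replicates 1 and 2, and the adaptor subunit AP2S1 was the highest of them per kb with 120 ± 32.2 CPM per kb (SD, n = 2). AP2A2, another adaptor subunit, was the lowest with 8.42 ± 0.400 CPM per kb (SD, n = 2). PTRF and CAV1 were each above all 9 clathrin genes in both libraries per kb of exons. With canonical transcripts this held for CAV1, whereas PTRF was above 7 of the 9. In the exact binomial test of edgeR, 4 clathrin genes were higher in replicate 1 and 4 in replicate 2, beside 27.6% and 30.1% of all genes tested. The former have 1558 to 6709 exonic bases and the latter 6342 to 14593.

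**Figure D4:**
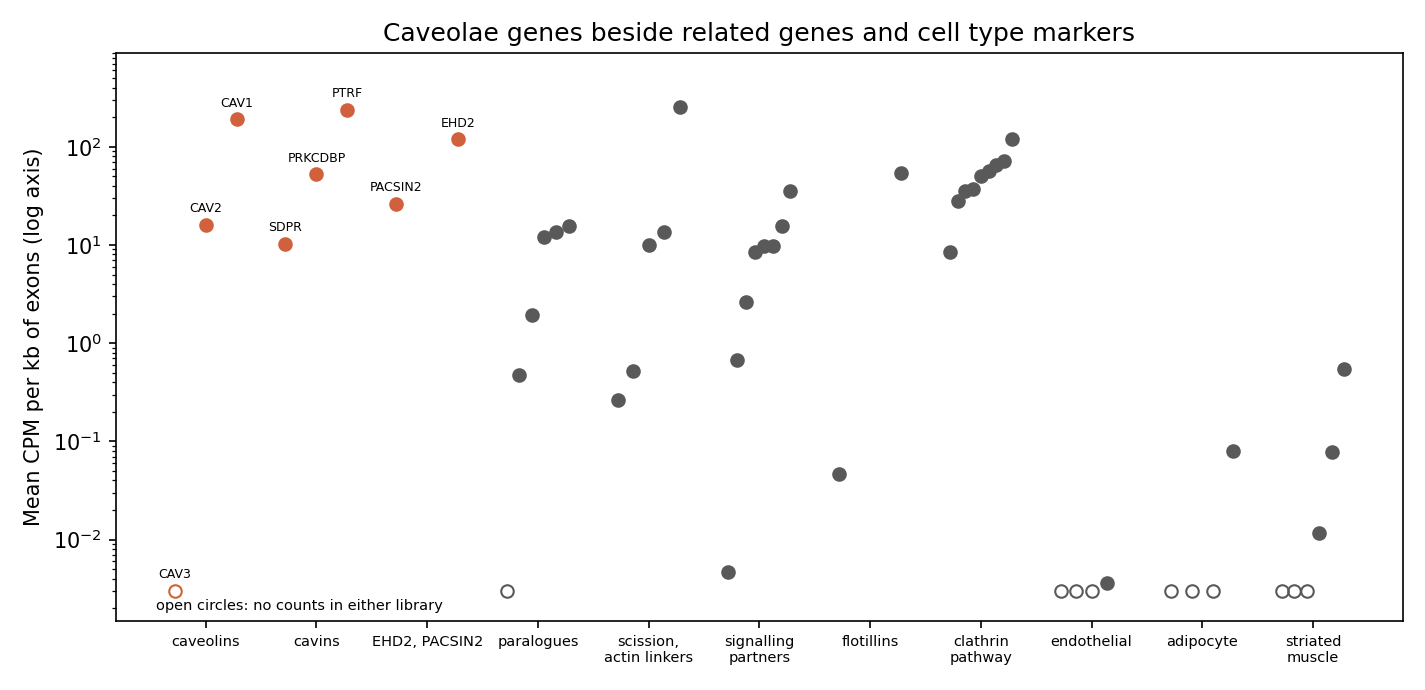
Mean CPM per kb of exons on a log axis for the caveolae genes (orange) and for lists of paralogues, related genes and cell type markers (gray), each point a gene and open circles genes without counts. PTRF, CAV1 and EHD2 lie between 119 and 239 CPM per kb, in the range of FLNA and of the highest clathrin gene, while marker genes of endothelium, adipocytes and striated muscle stay below 1; PECAM1 has no length and is not drawn.

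Caveolae are most numerous in endothelial cells, adipocytes and muscle, so markers of endothelium, adipocytes and striated muscle were read beside the caveolae genes. Smooth muscle markers were not listed, so these values say nothing about them. The 5 endothelial markers had summed levels of 1.08 CPM in replicate 1 and 1.11 CPM in replicate 2, nearly all from PECAM1, and VWF, TEK and KDR had no counts. The 4 adipocyte markers summed to 0.434 and 0.167 CPM, with ADIPOQ, FABP4 and LEP at 0. The 6 striated muscle markers summed to 1.69 and 1.11 CPM, mainly from MB with 30 and 19 counts, and MYOD1, MYOG and CKM, like CAV3, had no counts. Markers of the line itself showed VIM at 8159 and 6925 CPM, whereas ESR1 had 11 and 9 counts, PGR 2 and 0, EPCAM 6 in each and CDH1 9 and 13. ERBB2 was present at 99.7 ± 6.56 CPM (SD, n = 2).

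Around CAV1 and CAV2 on chromosome 7, CAV2 and its upstream neighbor TES differed most per kb among adjacent genes of the list. TES, which encodes the focal adhesion protein testin, had 17 and 14 counts, or 0.738 and 0.778 CPM. Its canonical transcript ends 241 kb before the canonical transcript of CAV2 starts. The whole CAV2 gene model begins at 115927434, closer to TES, and its exons enter the length used for CAV2. Further upstream, the transcription factor gene TFEC had 1 count in each library. CAV2 was 94.9 and 85.9 times as high as TES per kb in replicates 1 and 2. The CAV1 start lies 16.5 kb after the end of CAV2. Downstream, MET, the receptor of hepatocyte growth factor, starts 147 kb from the start of CAV1 and had 89.1 and 143 CPM in the 2 replicates. CAPZA2, an actin capping protein gene, had 106 ± 4.80 CPM (SD, n = 2), and ST7 had 23.3 ± 0.787 CPM (SD, n = 2). Of these 5 neighbors, 3 reached a mean count of 20, beside 52.8% of all gene symbols, and these lie downstream of CAV1. With a minimum of 10 counts in each library 4 passed, TES among them, so this split rests on the threshold.

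**Figure D5:**
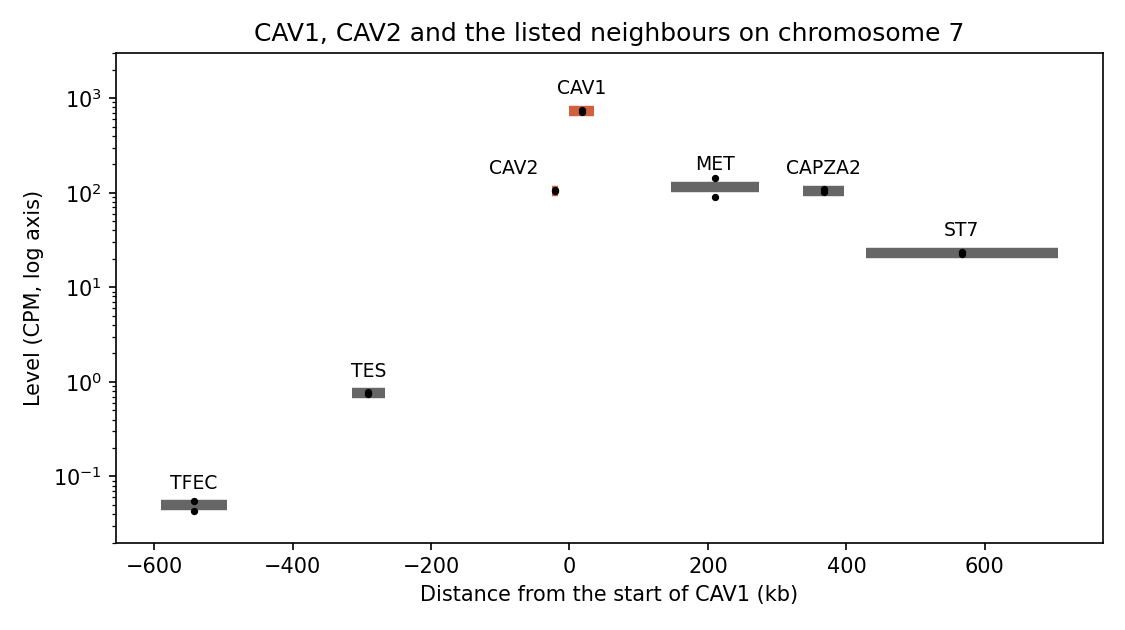
CPM on a log axis of CAV2 and CAV1 (orange) and of the listed neighboring genes (gray) against the distance in kb from the start of CAV1, with bars spanning the canonical transcripts at the mean and dots for the 2 libraries. TES and TFEC upstream lie below 1 CPM, CAV2 and CAV1 at 106 and 736 CPM, and MET, CAPZA2 and ST7 downstream between 23.3 and 116 CPM.

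Likeness to other genes could be taken over 2 libraries only, as the distance in log2 CPM per kb, and it reflects level rather than a pattern. The 3 genes closest to CAV1 were H1F0, PABPC1 and HDGF, at distances of 0.0618 to 0.100. Those closest to PTRF were YWHAQ, HNRNPAB and LDHB, at 0.0685 to 0.120, and those closest to PACSIN2 were RETSAT, LRRC37BP1 and API5, at 0.0263 to 0.0332. YWHAQ, for example, had 257 and 236 CPM per kb against 246 and 232 for PTRF.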

How the data were processed

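Polyadenylated RNA of 2 libraries was sequenced, and the authors deposited unnormalized read counts by gene symbol for each. As the methods and the submitters' notes on processing state, reads were checked with FastQC, mapped to hg19 with HISAT2 and counted inside genes with HTSeq, and deepTools is also listed. The versions of these tools, the gene annotation and the strand option are not given in the sources used here.

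CPM were computed here from the total counts, 23044084 in replicate 1 and 17985508 in replicate 2, so that 1 count is 0.0434 and 0.0556 CPM. The totals limit precision at low levels only, and the limits given cover counting error. Of the symbols, 21149 (90.5%) were matched to GENCODE genes of GRCh37, the build of hg19, 1836 of them through older symbols. The libraries were compared with the exact binomial test of edgeR over genes with at least 10 counts in sum and Benjamini-Hochberg adjustment. Above 10000 counts edgeR turns to a chi-square test, and an exact binomial test was run beside it. The main binomial test and the common dispersion were tried first on simulated data, which lacked the length trend of these libraries. Apart from differences set on purpose, the data simulated for the binomial test also held no spread beyond counting error, unlike these libraries. The test by length class and the dispersions of single genes were not tried in this way. The libraries differed beyond counting error (chi-square 944379, 13743 degrees of freedom) and were kept as 2 replicates.

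The members and lists were chosen with earlier results of these data known. The text names all 8 members and, of the other lists, the highest, the lowest and those with a role at caveolae, and the neighbors of closest level are the 3 with the smallest distance. Alternatives covered scaling, filter, gene length, test and each library left out. Python 3.11.15, pandas 2.3.3, scipy 1.17.1, matplotlib 3.10.9, R 4.3.3, edgeR 4.0.16 and DESeq2 1.42.0 were used.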

Additional observations from a re-analysis of the deposited data

How the results depend on the processing

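The number of caveolae genes with a mean count of at least 20 stayed at 7 under each minimum count tried and without either library. The number that differed between the libraries was 4 with TMM, with DESeq2 size factors, without a filter, with the Fisher exact test and with the exact binomial test at high counts, and it was 6 with the share expected from the class of exonic length, where CAV2, SDPR and EHD2 also passed and CAV1 did not. Under that expectation the log2 ratio of replicate 2 to replicate 1 changed sign to 0.033 for CAV1, 0.12 for PTRF, 0.19 for PRKCDBP and 0.083 for EHD2, since the expected share of replicate 1 is higher in their classes. The ratio of CAV1 to CAV2 per kb moved from 11.9 to 7.77 with the longest transcripts, 8.39 with canonical transcripts and 6.35 with coding lengths, by the lengths alone, and ranged from 11.8 to 11.9 when either library was left out. The canonical and coding lengths in the order of levels, the canonical length in this ratio and the exact test at high counts were chosen after seeing the data. The neighboring pairs of genes with ranges apart were 7 with TMM and TPM-like scaling and 6 with each of the other lengths. Without replicate 1, MB fell below the minimum and no striated muscle marker reached it. No paired analysis was possible because both libraries belong to 1 group. With 1 library left out no test between libraries could be made. Among the caveolae genes, depth limits what can be said of CAV3.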
